A study of Homo sapiens with 12 samples.

Results

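The class IIa histone deacetylases HDAC4, HDAC5, HDAC7 and HDAC9 and the MEF2 transcription factors MEF2A, MEF2B, MEF2C and MEF2D form a set of 8 genes, chosen by name. Accessible sites were assigned to a gene when their summit lay inside its RefSeq boundaries (GRCh38) or within 10000 bp of them. This gave 88 summits in 72 intervals, of 188019 summits in 91278 intervals in the whole list. The class IIa genes held 65 of the 88 and the MEF2 genes 23. Of the 88, 72 lay inside the genes and 16 in the flanks, and 7 of the flanking summits lay inside another gene.

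The sites came from ATAC-seq, in which a transposase cuts open chromatin, of HT1080 cells, an established human fibrosarcoma line. Cells migrated for 48 h in matrices of type I collagen from rat tail. The low concentration was 0.3 mg/mL, the medium one was 1.0 mg/mL and the high one reached 1.7 mg/mL. There were 4 libraries per concentration and 12 in all, and all cells were treated with GM6001 (20 µM), which blocks a broad range of metalloproteinases. The peak list analysed here is a single list for the whole series with no column for a library or concentration. Every value below is therefore 1 value for the series without replicates, no concentrations are compared, and the depth per library is unknown. The study asked how confined migration alters chromatin accessibility.

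Class IIa deacetylases have little catalytic activity of their own on histones. They bind MEF2 factors at DNA and recruit corepressor complexes, and when kinases phosphorylate them they are held by 14-3-3 proteins in the cytoplasm, which frees MEF2 to activate its targets. MEF2 factors are best known from muscle, neurons and vessels, but at least some members act in most cell types, and HDAC9 is itself a known MEF2 target gene.

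Strength was measured by enrichment and by pileup. The enrichment is the authors' ratio of the signal at a summit to the local background. The pileup is the count that overlaps there, recovered from the enrichment and its p-value. Its unit is called fragments here, but whether fragments or single reads were piled up is not given in the sources used. Intervals in brackets are exact 95% Poisson intervals of the pileup carried over to the enrichment. They cover counting error only, not the spread between cultures. Across the 88 summits the enrichment ranged from 1.43 to 15.9 with a median of 3.91, against a median of 4.34 over the 68749 summits assigned to any protein-coding gene by the same rule. HDAC4 held 40 of the 88 summits and had the lowest median of the 8 genes, and the median of the other 48 was 5.63. No gene was set aside from the reference in the same way, so 5.63 and 4.34 are not a like comparison. The 5.63 shows only how far the median of 3.91 rests on 1 gene. The pileup ranged from 35 to 3760 fragments with a median of 139, against 129. The 8 genes had a median of 8 summits each. Over all 20037 protein-coding genes the median was 3 and the quartiles 2 and 6, and 89.8% had at least 1 summit. Of the 8 genes, HDAC4, HDAC9, MEF2A and MEF2C are longer than 100000 bp, and the 3356 coding genes of at least that length had a median of 7 summits.

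**Figure D1:**
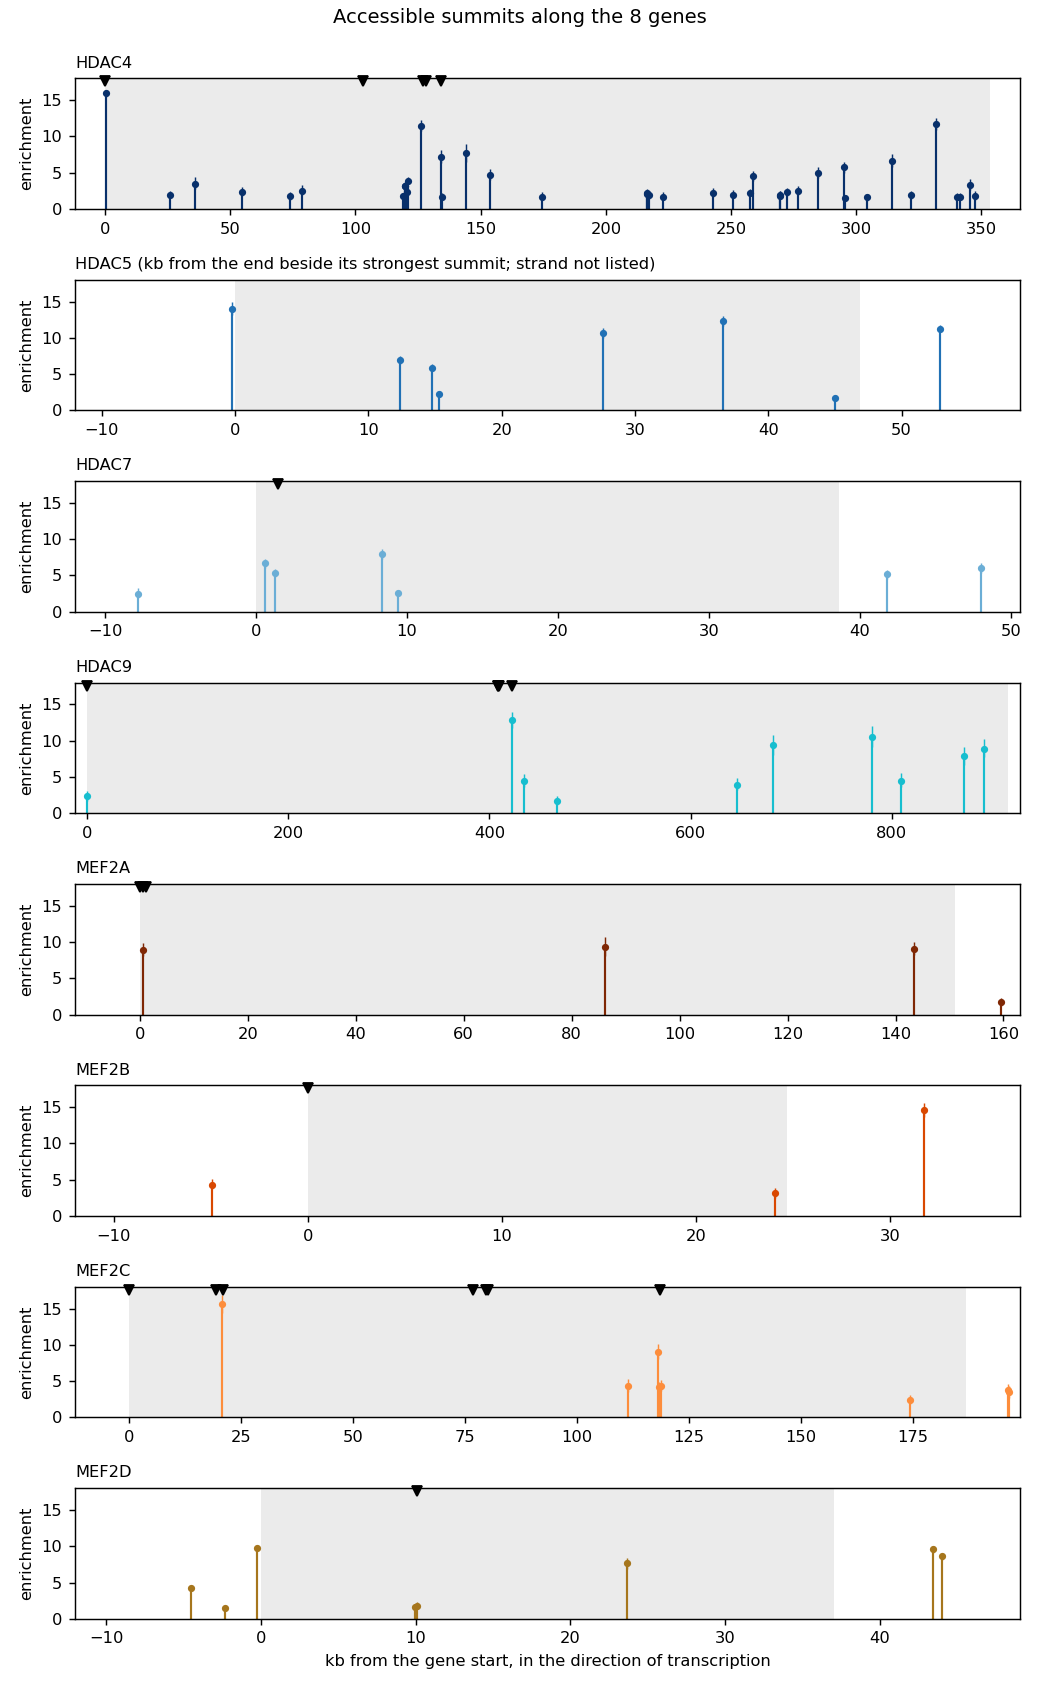
Enrichment (vertical axis) of every summit against its distance in kb from the gene start, in the direction of transcription, with 1 panel per gene; HDAC5, whose strand was not listed, is drawn from the end beside its strongest summit. Grey marks the gene, triangles the starts listed by RefSeq, and bars the 95% Poisson counting intervals; HDAC4 carried 40 summits, whereas 0 summits lay between starts 1 and 5 of HDAC9 once the 1000 bp around each are set aside.

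A summit lay within 1000 bp of the gene start, the outermost annotated end on the side of transcription, in 6 of the 8 genes, against 62.8% of all protein-coding genes. The exceptions were MEF2B and MEF2C. With 8 genes this count is near the share of coding genes. Within 500 bp of the start it was 4 of 8, and no share of coding genes is given for that window. For HDAC5, whose strand was not listed, either end counted. HDAC4 had the highest enrichment at its start, 15.9 (15.4 to 16.4), followed by HDAC5 with 14.0 (13.2 to 14.9), MEF2D with 9.77 (9.42 to 10.1) and MEF2A with 8.89 (8.02 to 9.83). HDAC7 had 6.67 (6.09 to 7.29) and HDAC9 2.30 (1.71 to 3.03). The intervals of MEF2D and MEF2A overlapped, and those of all other neighbours in this order did not. By comparison, the median over the 12583 coding genes with a start summit was 11.9, with quartiles of 7.18 and 14.8. HDAC5 was between that median and the upper quartile, HDAC4 above the upper quartile, MEF2D and MEF2A between the lower quartile and the median, and HDAC7 and HDAC9 below the lower quartile.

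RefSeq lists 23 starts for 7 of the 8 genes, since several have alternative promoters; the table has no entry for HDAC5, and for HDAC7 and MEF2D it lists 1 start each, inside the gene. Of the 23 starts, 12 had a summit within 1000 bp (52.2%), against 62.7% of the 22199 listed starts of coding genes. A summit lay near at least 1 start in 7 of the 8 genes, counting these starts together with the gene starts, against 67% of coding genes. The windows of 300 bp around the 12 starts with a summit had a median GC content of 62.8% (range 31.7% to 82.3%), and those of the other 11 had 47.3% (28.7% to 71%). Over all coding genes the corresponding medians were 65.7% and 53.3%. The 2 ranges among the members overlapped: open starts of HDAC9 and MEF2C were among the AT-rich ones, while the start of MEF2B was GC-rich and had no summit. Starts of 1 gene can lie close together, so the 23 are not independent sites.

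**Figure D2:**
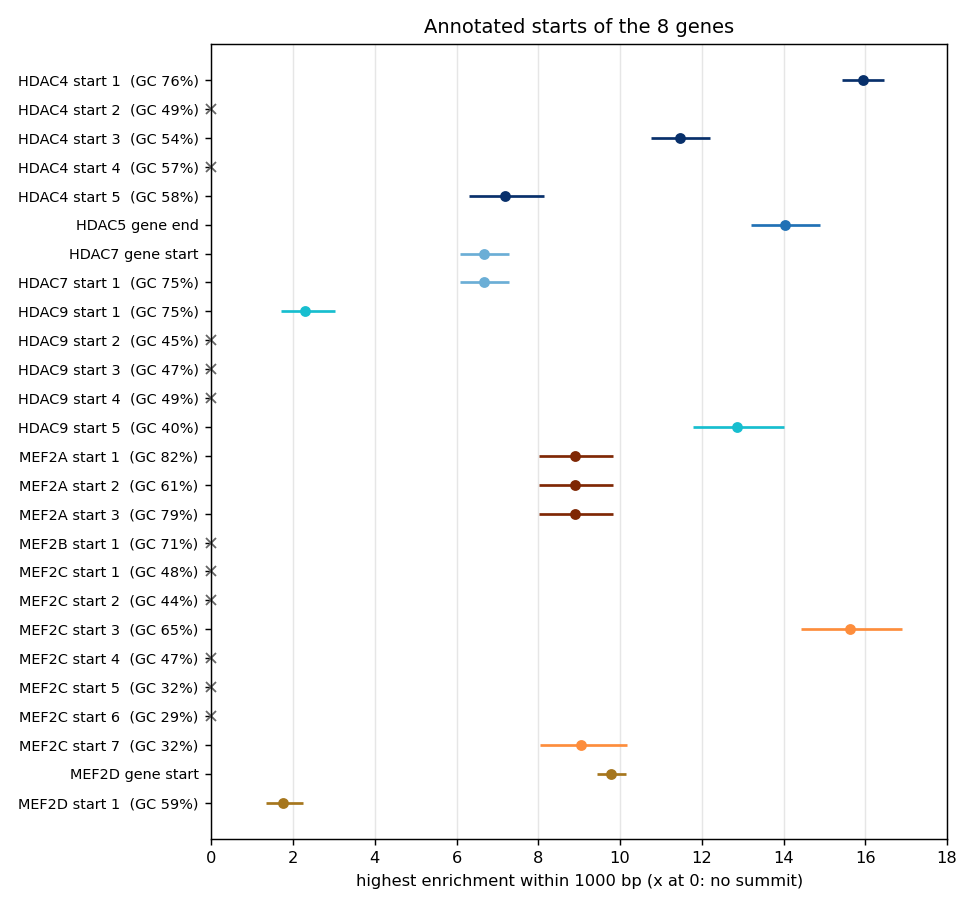
Highest enrichment within 1000 bp (horizontal axis) of each listed start, with the gene starts of HDAC7 and MEF2D and the open end of HDAC5 added; bars are 95% Poisson counting intervals, crosses at 0 mark starts with no summit, and the GC content of the window of 300 bp is given beside each name. HDAC9 had 12.9 at start 5 and 2.30 at start 1, and MEF2C had no summit at 5 of its 7 starts.

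HDAC4, the class IIa enzyme with the most summits, spans 239048168 to 239401649 on chromosome 2. All 40 of its summits lay inside the gene, a density of 11.3 per 100 kb. Among the 3356 coding genes of at least 100000 bp the median density was 2.73 per 100 kb, and 96.9% of them had a lower density than HDAC4. The 40 summits of HDAC4 lay in 31 intervals, and this rank was not computed for intervals or at a stricter q. Many of its summits were weak: the median enrichment was 2.26 and the median pileup 63 fragments, and 23 of the 40 had a −log10 q under 10. The strongest lay 373 bp downstream of the gene start, at 239401276, with a pileup of 3760, and was 160 bp from a listed start of the antisense gene HDAC4-AS1, so the signal at this site cannot be assigned to one of the pair. Next came a summit at 239069602 with an enrichment of 11.7 (10.8 to 12.6), far downstream in the gene, whose interval from 239068875 to 239069841 overlapped the microRNA gene MIR4440. A summit at 239275290, 509 bp upstream of start 3, reached 11.5 (10.8 to 12.2), and another, 69 bp upstream of start 5, had 7.18 (6.31 to 8.13). Starts 2 and 4 had none within 1000 bp. Between starts 3 and 1, leaving out the 1000 bp beside each, 10 summits had enrichments of 1.74 to 3.88, and no site in that stretch was above the median of coding genes' summits (4.34). The part more than 1000 bp downstream of start 5 held 26 summits with a median of 2.09, ranging up to the 11.7 near MIR4440. Others of intermediate strength in that part were at 239257693, with 7.64 (6.52 to 8.91) over the genome-wide background, and at 239087222, 239106491 and 239117050, with 6.66, 5.73 and 5.01. The widest interval of the set, 2619 bp from 239280347 to 239282965, lay in the stretch between starts 3 and 1.

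HDAC5 spans 44076753 to 44123641 on chromosome 17. It had 8 summits, 6 of them inside the gene. Its median enrichment of 8.76 was the second highest of the 8 genes, with flanking summits counted, including one at the start of the neighbour G6PC3. The summit at 44123836, 195 bp outside one gene end, had the highest enrichment, 14.0 (pileup 1080). Inside the gene, summits at 44087026 and 44096009 reached 12.3 (11.6 to 13.1) and 10.6 (9.97 to 11.3), with pileups of 1137 and 987. HDAC5 was thus open at several strong sites inside the gene and not at one end alone. Weaker summits lay at 44111259 (6.89) and 44108871 (5.88), and the weakest, at 44078628, had 1.68 (1.31 to 2.13). A further summit in the flank, at 44070774 (enrichment 11.2, pileup 2093), lay 39 bp from the start of G6PC3, the neighbouring gene for a glucose-6-phosphatase.

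HDAC7, known for its roles in endothelial cells and thymocytes, spans 47782722 to 47821344 on chromosome 12. Its 7 summits had enrichments of 2.51 to 7.94, and none reached 10. An interval of 1444 bp covered the first part of the gene, with summits at 47820779 (6.67) and 47820092 (5.38, 4.86 to 5.93), the second of them 189 bp upstream of the listed start. The highest value, 7.94 (7.33 to 8.59) with a pileup of 614, lay at 47813017, further inside the gene. Of the 3 flanking summits, one was 56 bp from a start of SLC48A1, a haem transporter gene, and another 2 bp from a start of the noncoding gene LINC02354.

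HDAC9, which also encodes a short form without the catalytic domain, spans 18086825 to 19002416 on chromosome 7 and was the longest of the 8 genes. Its 10 summits gave 9 inside the gene, or 0.983 per 100 kb, and 19.2% of coding genes of at least 100000 bp had a lower density. The summit at start 1 was weak, enriched 2.30 times over background by 48 fragments. Start 5 had a summit 68 bp upstream, at 18509202, which is 422377 bp downstream of the gene start. Its enrichment was 12.9 (11.8 to 14.0) and its pileup 518, and the counting intervals at starts 1 and 5 did not overlap. No summit lay between these starts outside the 1000 bp on either side, and starts 2, 3 and 4 had none. More than 1000 bp downstream of start 5 a further 8 summits had enrichments of 1.69 to 10.5 with a median of 6.17. The strongest of these, at 18866832, had 10.5, and those at 18768441, 18978293 and 18958812 had 9.33, 8.90 and 7.83. A weaker one, at 18895587 with 4.50, lay inside the antisense gene HDAC9-AS1 as well. Their pileups of 35 to 223 fragments were all below the 518 at start 5. The sequences of starts 1 and 5 are shown because they differ in base composition as well as in signal. Each runs from 250 bases before the start to 10 bases from it on, 5′ to 3′, from RefSeq (GRCh38.p14), plus strand. Capitals mark matches to the MEF2 consensus. Start 1 is chr7:18086575-18086834 and start 5 is chr7:18509020-18509279.
HDAC9 start 1: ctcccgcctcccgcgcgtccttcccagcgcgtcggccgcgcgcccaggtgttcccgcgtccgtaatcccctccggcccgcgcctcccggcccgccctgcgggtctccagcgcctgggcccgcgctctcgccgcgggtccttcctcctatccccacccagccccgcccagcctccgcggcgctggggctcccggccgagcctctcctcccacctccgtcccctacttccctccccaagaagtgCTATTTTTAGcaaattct
HDAC9 start 5: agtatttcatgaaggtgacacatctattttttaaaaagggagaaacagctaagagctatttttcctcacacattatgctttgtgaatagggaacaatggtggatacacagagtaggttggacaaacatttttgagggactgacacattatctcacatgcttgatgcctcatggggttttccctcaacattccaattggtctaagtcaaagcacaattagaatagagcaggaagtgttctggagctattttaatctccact
The window of start 1 had a GC content of 75% with 41 CpG dinucleotides, and that of start 5 had 40% with 0. The MEF2 match in start 1, CTATTTTTAG, runs from 8 bases before the start to 1 base after it (the start base counts as 0). HDAC9 start 5, where the summit was strong, has no match to any motif searched.

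Among the MEF2 factors, MEF2A, the most widely expressed of the family, spans 99565417 to 99716488 on chromosome 15. It had 4 summits, and 3 of them were of nearly equal strength. The interval from 99565243 to 99566551 covered all 3 listed starts with a single summit at 99565935 (8.89, 8.02 to 9.83, pileup 381). Inside the gene, summits at 99651581 and 99708787 had 9.33 (8.09 to 10.7) and 9.09 (8.20 to 10.0), and the counting intervals of the 3 overlapped. The other one, in the flank and within LYSMD4, had 1.69. The sequence around start 2 is shown because the summit lay 49 bp upstream of that start and a MEF2 match lies in it, in capitals. It is chr15:99565734-99565993, plus strand, from RefSeq (GRCh38.p14).
MEF2A start 2: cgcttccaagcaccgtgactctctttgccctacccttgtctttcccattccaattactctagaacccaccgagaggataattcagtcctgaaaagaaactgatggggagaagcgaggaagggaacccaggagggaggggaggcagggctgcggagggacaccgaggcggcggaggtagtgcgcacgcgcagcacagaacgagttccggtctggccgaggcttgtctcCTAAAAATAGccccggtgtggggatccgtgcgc
The match, CTAAAAATAG, lies from 23 to 14 bases before the start. The windows of starts 1 and 3 held no MEF2 match but 7 and 4 GC boxes.

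MEF2B, best known from germinal centre B cells and their lymphomas, spans 19145567 to 19170263 on chromosome 19 and had no summit within 1000 bp of its start, although that window has a GC content of 71%. Its 3 summits were the fewest of the 8 genes. The single one inside the gene, at 19146211, had an enrichment of 3.11 (2.49 to 3.83). Upstream, the nearest summit was 4923 bp from the start, with 4.32 (3.68 to 5.03). The strongest, 14.6 (13.7 to 15.5) at 19138504, was in the downstream flank, 26 bp from the start of TMEM161A. The read-through gene BORCS8-MEF2B shares the downstream end of MEF2B and starts at 19192152. A summit 552 bp from that start had 14.5 (13.9 to 15.2), but it lies 22441 bp from MEF2B itself, outside the flank, and is also the start summit of RFXANK.

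MEF2C, a regulator of heart, muscle, bone and neural development, spans 88717117 to 88904105 on chromosome 5. It was closed, in the sense that no summit was called within 1000 bp, at its outermost start and at 4 of the 6 others. At start 3, 20830 bp inside the gene, lay the summit with the second highest enrichment of all 88, 15.6 (14.4 to 16.9) at 88883275 (pileup 626). This summit was also 55 bp from the start of the antisense gene MEF2C-AS1, and the assay does not tell the pair apart. Start 7, the most downstream one, lay in an interval of 1399 bp with 3 summits, at 88785242, 88785625 and 88785985, of 4.38 (3.69 to 5.17), 4.14 (3.47 to 4.90) and 9.05 (8.04 to 10.2). Both open starts are shown to compare their sequences. They lie on the minus strand (RefSeq, GRCh38.p14), start 3 at chr5:88883175-88883434 and start 7 at chr5:88785502-88785761. Capitals mark AP-1 matches.
MEF2C start 3: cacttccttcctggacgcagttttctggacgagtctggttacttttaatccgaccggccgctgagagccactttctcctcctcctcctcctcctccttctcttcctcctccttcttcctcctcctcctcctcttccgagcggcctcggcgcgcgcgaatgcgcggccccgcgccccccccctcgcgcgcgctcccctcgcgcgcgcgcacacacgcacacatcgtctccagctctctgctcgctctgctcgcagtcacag
MEF2C start 7: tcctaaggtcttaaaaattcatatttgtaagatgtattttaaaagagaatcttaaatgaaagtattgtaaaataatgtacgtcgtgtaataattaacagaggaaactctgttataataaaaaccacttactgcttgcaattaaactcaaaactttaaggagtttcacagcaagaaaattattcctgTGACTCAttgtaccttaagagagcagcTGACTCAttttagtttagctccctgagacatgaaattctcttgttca
Start 3 is GC-rich (64.7%, 32 CpG dinucleotides in its window) and has no match to any motif searched. Start 7 is AT-rich (GC content 31.7%, 2 CpG dinucleotides) and holds 2 copies of TGACTCA, from 64 to 58 and from 37 to 31 bases before the start. The summit at 88785625, 114 bp upstream of start 7, lies in the printed stretch, and the strongest of the 3, 474 bp upstream, lies outside it. A further 3 summits inside or beside MEF2C, at 88792626 and at 88707504 and 88707729 in the flank, had 4.36, 3.47 and 3.75, and the last at 88729665 had 2.39.

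MEF2D, expressed in many tissues, spans 156463727 to 156500775 on chromosome 1. The summit 219 bp upstream of its gene start, at 156500994, had an enrichment of 9.77. Its pileup of 2940 was the second highest of the 88 summits. The listed start inside the gene had only weak summits, of 1.76 (1.35 to 2.25) and 1.60 (1.21 to 2.08). A summit further inside the gene, at 156477097, had 7.64 (6.90 to 8.43). In the downstream flank an interval of 1237 bp held summits of 8.60 and 9.57, with pileups of 1445 and 1653 and no other gene start within 1000 bp. Upstream, summits 2317 and 4512 bp from the gene start had 1.43 (1.29 to 1.57) and 4.20 (3.97 to 4.45). Their pileups of 410 and 1167 were above the median of 139, and the summits stood on local backgrounds of 287.3 and 276.9 fragments.

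The order of the genes depended on the measure. The local background was raised above the genome-wide value of 20.3 fragments at 69 of the 88 summits, and it was at that value at 19 (21.6%, against 24.7% of summits of all coding genes). It was raised at every summit of HDAC5, HDAC7, MEF2B and MEF2D, whereas 8 of the 10 HDAC9 summits were at the genome-wide value. At the start of MEF2D the background was 299.9 fragments, 14.8 times the genome-wide value, and at that of HDAC4 235.1. By enrichment at the start MEF2D came after HDAC4 and HDAC5, and by pileup it came after HDAC4 only, with 2940 fragments (95% Poisson interval 2835 to 3048) against 1080 (1017 to 1146) for HDAC5. By the median over all summits of a gene, the ranks among the 8 in enrichment and in pileup were 1 and 3 for MEF2A, 3 and 6 for HDAC9, and 4 and 2 for MEF2D. HDAC4 was last by both medians and held the highest single value by both.

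**Figure D3:**
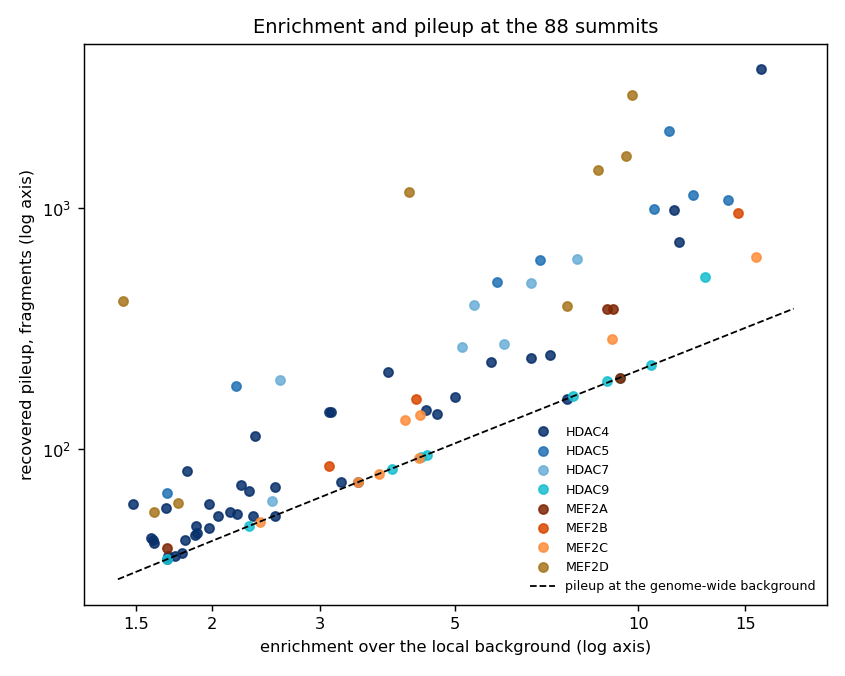
Recovered pileup in fragments (vertical, log axis) against enrichment (horizontal, log axis) of the 88 summits, 1 point each, coloured by gene; the dashed line is the pileup that each enrichment gives at the genome-wide background. Of the 10 HDAC9 points 8 lie on the line, and all 8 MEF2D points lie above it.

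Sequence motifs were searched on both strands of the windows of 300 bp (250 bases before to 50 from the start on) in all 35116 RefSeq windows, 23 of them of the members. A MEF2 consensus match was in 3 member windows, of HDAC9 (start 1), MEF2A (start 2) and MEF2C (start 5), against 2.99% of all windows. HDAC9 start 1 and MEF2A start 2 had a summit within 1000 bp and MEF2C start 5 had none. AP-1 matches, spelled TGANTCA, were in 3 member windows, MEF2C start 7 and HDAC9 starts 2 and 3, against 7.71% of all windows; the HDAC9 windows overlap and share the same match. The GC box, GGGCGG, was in 6 member windows of 5 genes, against 45.0%. The E-box CACGTG was in 1 window, HDAC4 start 1, against 7.26%, and the CRE TGACGTCA was in 0 of 23, against 1.85%. Among all windows the MEF2 consensus was in 1.27% of those with a summit within 1000 bp and in 4.79% of the others. The GC box was in 66.2% and 22.8%. A match is a run of letters, not a binding site shown to be used.

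The genes that act on class IIa deacetylases and MEF2 were examined next by the rule used for gene starts, with 62.8% of all protein-coding genes as the background share. All 13 kinases that can drive class IIa deacetylases from the nucleus, or activate such kinases, had a start summit, with a median enrichment of 14.0 against 11.9 for all coding genes with one. SIK2, a salt-inducible kinase, had the highest, 18.9 (18.2 to 19.6), and CAMK1, a calmodulin-dependent kinase, the lowest, 3.17 (2.55 to 3.89). Of the 8 genes of cytoplasmic retention and export, 6 had one, with a median of 14.6. The highest was the 14-3-3 gene YWHAB with 17.1 and the lowest YWHAH with 12.7, so every member with a start summit was above the median of coding genes. YWHAZ, whose strand was not listed, and SFN had no start summit, with 6 summits and 1 summit in the gene or within 10000 bp.

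Corepressor partners had a start summit in 9 of 11 genes, with a median of 13.3. The highest was 14.5 (13.9 to 15.2) at RFXANK, which encodes an ankyrin repeat protein related to the class IIa-binding ANKRA2. TBL1XR1 and CTBP1 lacked one at the outermost start and had one at another listed start. All 8 genes listed as activators and coactivators of MEF2 had a start summit, with a median of 14.6. The highest was CABIN1 with 18.5 (17.4 to 19.6), which is known as a repressor of MEF2 that calcium signalling releases, and the lowest was the acetyltransferase gene KAT2B with 7.87. The 7 other zinc-dependent deacetylases (classes I, IIb and IV) all had a start summit, from 6.45 at HDAC10 to 14.6 at HDAC11 with a median of 13.7. HDAC3, the catalytic partner of class IIa complexes, had 13.3 (12.6 to 14.0) and is in both lists.

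MEF2 target genes of muscle and of other cells were counted separately. In the list for non-muscle cells 7 of 9 had a start summit, with a median of 9.47. JUN, a subunit of AP-1, had 13.5 and the nuclear receptor gene NR4A3 5.84. NR4A1 had no start summit but 7 summits in the gene or within 10000 bp, and KLF4 had 0 in either. In the list of muscle targets 1 of 8 had a start summit, MYL2 with 6.84. MYOG, MYOD1, ACTA1, DES, CKM, MYH7 and TNNC1 had none there. Each had at least 1 summit in the gene or within 10000 bp, as did 89.8% of all protein-coding genes. The strand was not listed for 5 of these 8 genes, for which either end counted. In total 50 of 63 pathway genes had a start summit (79.4%), against 62.8% of all protein-coding genes.

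**Figure D4:**
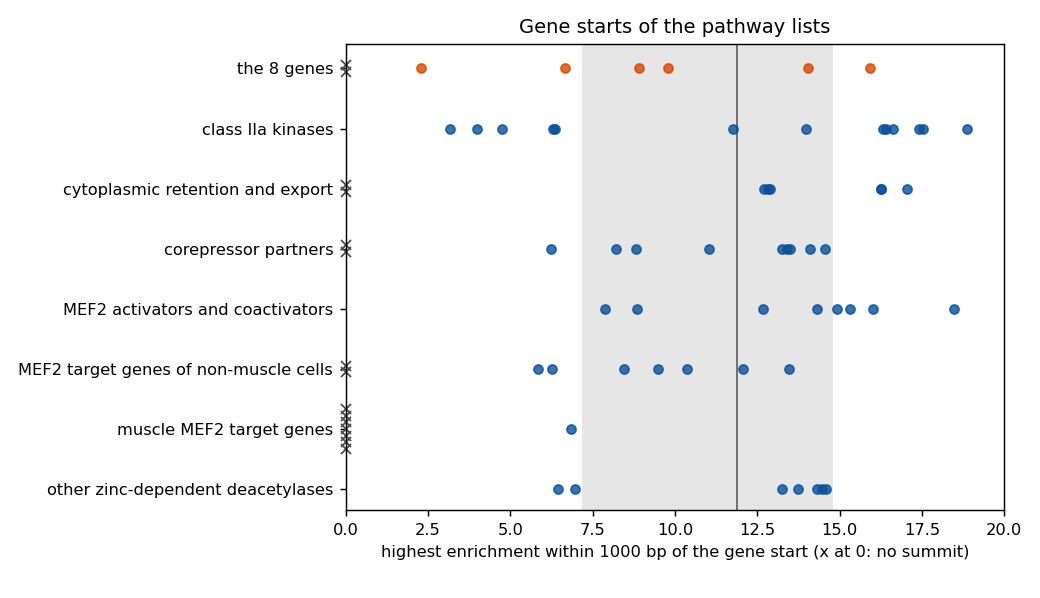
Highest enrichment within 1000 bp of the gene start (horizontal axis) for the 8 genes (orange) and for each pathway list (blue), 1 point per gene; crosses at 0 mark genes with no start summit. The line and the grey band are the median (11.9) and quartiles (7.18 and 14.8) of all coding genes with a start summit; 7 of 8 muscle targets are at 0.

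The labelled cell type was checked against marker genes in the same way. Of all protein-coding genes 62.8% had a start summit, with a median enrichment of 11.9. Of 8 mesenchymal markers 7 had one (87.5%), and THY1 had none. The mesenchymal median enrichment of 8.74 was below that of coding genes. Of 5 epithelial markers 3 had a start summit (60%, near the share of coding genes), at 2.01 to 3.92. Of 5 leukocyte markers 2 did, CD3E with 14.5 and SPI1 with 8.44, and of 3 endothelial markers 0 did. The strand was not listed for CD3E and SPI1, so either end counted and these summits may lie at the end opposite the start. Across the lists the strand was missing for 2 mesenchymal, 3 epithelial, 3 leukocyte and 2 endothelial markers. Their counts are therefore of summits at a gene end, not of open promoters. With lists of 3 to 8 genes, these counts do not settle the cell type. Whether signal from other cells took part in any value above was not tested.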

How the data were processed

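ATAC-seq libraries of HT1080 cells, 4 for each of 3 collagen concentrations, were made by the Omni-ATAC protocol with at most 25000 cells, 11 PCR cycles and paired reads of 150 bp, per the labels' protocols. The submitters' processing notes name fastp 0.20.0, Bowtie2 2.4.3, deepTools 3.5.0, SAMtools, MACS2 2.2.7.1 and the build hg38; settings, filters and which libraries were pooled are not given in the sources used here. The authors deposited 1 peak list. Its enrichment is a ratio to local background, its p and q columns are deposited on the −log10 scale (lowest −log10 q 1.30), and its deposited score follows the −log10 q.

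The pileup and background were solved from the enrichment and p under a Poisson model with 1 added to both. The pileup was whole, within 0.05, in 99.96% of lines; the 80 others had pileups of at least 1130. A background within 0.2% of the lowest recurring value was called genome-wide. The recovery was tested on data simulated under the same model, so that test does not bear on the unit of the pileup. The genome-wide background assumes this model, which no label states.

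Gene boundaries are those of RefSeq GRCh38.p14, which gives no exons here; strand came from the RefSeq promoter table for 15843 of 20037 protein-coding genes, and either end counted as the start for the rest. A start within 1000 bp of a summit counted as open, and lines of 1 interval counted as separate summits. Named genes were all 8 members and, per pathway list, the highest and lowest start enrichment and every gene without a start summit; 1 gene that this rule names is not reported here. BORCS8-MEF2B and MIR4440 were added after their values were seen. The members and lists were chosen with earlier results of these data known. No test between groups was possible, and no p-value is reported. Alternatives were other flanks, start windows, a stricter q and 1 summit per interval. Python 3.11.15, numpy 2.4.6, scipy 1.17.1 and pandas 2.3.3 were used.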

Additional observations from a re-analysis of the deposited data

How the results depend on the processing

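Of the 17 alternatives to the summit total, the counts of open starts and the median enrichment, 15 stayed within a set range. The range was 1.5 times the reported count or, for the median, 2.54 to 4.67, taken from the ranked values of the 88 summits. That range treats the summits as independent, although 40 are of HDAC4 and several share an interval. It is a yardstick for the settings and not a confidence interval for the genes. The alternatives that moved came from 1 setting: at a −log10 q of at least 10 the summits of the 8 genes numbered 56 in place of 88, and their median enrichment was 6.34 in place of 3.91. HDAC4 fell from 40 to 17 summits under this setting and MEF2D from 8 to 5. The q rests on the same signal and background as the enrichment, so the cut takes out weak summits by construction. It kept 63.6% of the members' summits, against 70.1% of those of all coding genes. The start counts ranged from 4 (within 500 bp) to 7 (either end, or any listed start, the latter chosen after the data were seen) of 8 members, and from 48 to 57 of 63 pathway genes. For any listed start the share of coding genes was 67%, and none is given for the other alternatives. Without the flank the members had 72 summits, and with 25 kb they had 101. For single genes 13 of 48 alternatives moved the value. These mix summit counts, judged by the same 1.5 times rule, with ranks by pileup in place of enrichment, where any change of rank counted as moved. At the edge of the flank, the MEF2A summit 8434 bp from the gene had an enrichment of 1.69 and the next one, 17024 bp away and outside, had 14.8; for HDAC5 the values were 11.2 at 5979 bp and 4.29 at 10109 bp. No paired analysis was possible because the list has no column for a library or replicate, and leaving out replicates was not possible for the same reason. The planned motif search around summits was not run for want of genome sequence. A start without a summit may have signal under the threshold of the list.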

Other observations

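The gene downstream of HDAC9 is TWIST1, a transcription factor of mesenchymal cells and of epithelial-mesenchymal transition, at 19113047 to 19117636 on chromosome 7. No summit was called in the 110630 bp between HDAC9 and TWIST1. The 2 summits nearest past the HDAC9 end lay in TWIST1 itself, in an interval of 1769 bp, with enrichments of 3.35 (95% Poisson interval 2.67 to 4.16) and 6.27 (5.32 to 7.33) and pileups of 80 and 153 fragments. Inside HDAC9 the summits at 18509202, 18768441, 18866832 and 18978293, with 12.9, 9.33, 10.5 and 8.90, were higher than either TWIST1 summit. Their counting intervals in enrichment did not overlap that of the stronger TWIST1 summit. In pileup they had 518, 198, 223 and 192 fragments against 153, and there the intervals of 198 (171 to 228) and 192 (166 to 221) did overlap. The HDAC9 summit at 18958812, with an enrichment of 7.83 (6.69 to 9.11), was also higher, but its enrichment interval overlapped. The pair of genes was picked after the values were seen, and no link between the sites was measured.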
